A study of Rattus norvegicus with 8 samples.

Results

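Cyclic AMP is made, destroyed and read out by 3 sets of enzymes, and their transcripts were followed here in somata and processes of cultured rat hippocampal neurons. The genes were all symbols of the count table that name an adenylyl cyclase (10 Adcy genes), a cyclic nucleotide phosphodiesterase (24 Pde genes) or a subunit of protein kinase A (PKA, 2 catalytic and 4 regulatory Prk genes). These are 40 of the 28909 symbols, taken by name and not by a measured value. These genes and the lists below were chosen with earlier results of these data known.

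Adenylyl cyclases turn ATP into cyclic AMP when a receptor activates the stimulatory G protein Gs, and some of them are also switched on by calcium and calmodulin or held back by calcium. Phosphodiesterases hydrolyse cyclic AMP, cyclic GMP or both. PKA is kept silent by its regulatory subunits until cyclic AMP binds them and frees the catalytic subunits, which phosphorylate channels, receptors and the transcription factor CREB. In hippocampal neurons the pathway is known for its part in long-lasting synaptic plasticity.

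The neurons came from embryonic Sprague-Dawley rats and were cultured on porous membranes that axons and dendrites cross while the somata stay above. Cultures received picrotoxin (PTX), a blocker of GABA-A receptors that raises network activity, for 48 h from day 18 in vitro or ethanol as vehicle, and RNA was taken at day 20 from the upper side (somata) or the lower side (processes). Ribosome-depleted RNA was sequenced from 4 groups, somata control, somata PTX, processes control and processes PTX, with 2 libraries each. The sources do not say whether the libraries of a group came from separate cultures, so p-values measure the spread between these libraries, which may be technical.

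Total counts ranged from 12290890 to 18455662 per library, but the mitochondrial genome took 68.5% to 72.5% of the counts of process libraries and 22.6% to 26.7% of those of somata. This left 4702054 to 5491237 counts for all other genes in processes and 9517542 to 11227599 in somata. Levels are given as CPM, a counts-per-million value of the TMM-scaled library size. By that scaling 1 read was worth 0.101 to 0.117 CPM in processes and 0.036 to 0.0425 CPM in somata. All 5 neuronal markers examined were present in every group, with a summed level of 1579 to 1786 CPM in somata control and 4959 to 5212 CPM in processes control libraries. Under TMM scaling 2 of the 5 passed an adjusted p under 0.05 as higher in control processes, Map2 (log2 fold change 2.30 ± 0.14) and Rbfox3 (0.52 ± 0.14). The other 3 passed as lower, Syt1 (-0.98 ± 0.17), Tubb3 (-0.57 ± 0.16) and Snap25 (-0.37 ± 0.13), with a median of -0.37 over the 5. The 8 astrocyte markers summed to 4092 to 4482 CPM in somata control libraries and 13327 to 14938 CPM in processes control libraries. Under TMM scaling 4 of the 8 were higher in processes, from Aldoc with a log2 fold change of 0.64 ± 0.11 (SE; adjusted p = 0.000998, edgeR quasi-likelihood test) to Gfap with 2.60 ± 0.20 (adjusted p = 3.15e-06), and 2 were lower, Slc1a3 (-0.56 ± 0.16, adjusted p = 0.0143) and Gja1 (-0.38 ± 0.12, adjusted p = 0.0268), with a median of 0.53 over the 8. By the same test 25.8% of all tested genes were higher in control processes and 21.9% lower. The 9 oligodendrocyte lineage markers summed to 296 to 457 CPM in somata control and 471 to 606 CPM in processes control libraries. The 6 microglia markers in the table summed to no more than 2.12 CPM in any library, and 3 of them had no read in processes control. In such bulk samples fewer cells of a type and less RNA per cell cannot be told apart.

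Of the 40 genes, 31 had more than 20 reads in at least 2 libraries and were tested. They are 8 cyclases, 17 phosphodiesterases and all 6 PKA subunits. The other 9 were Adcy4, Adcy10, Pde4c, Pde8a and the photoreceptor genes Pde6a, Pde6b, Pde6c, Pde6g and Pde6h, with at most 40 reads in any library. Pde4c, a cyclic AMP-specific phosphodiesterase, had 0 and 1 reads in somata control and 10 and 10 in somata PTX libraries, and 0 to 1 in processes. Adcy10, the soluble cyclase, had 8, 20, 17 and 15 reads in the somata libraries and 1, 0, 2 and 12 in the process libraries. Pde8a, a further cyclic AMP-specific enzyme, had 14 and 5 reads in somata control, 40 and 18 in somata PTX, and 0 to 5 in processes. These 9 genes did not pass the filter on low counts and entered only the fit made without it.

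Summed over each class, the regulatory PKA subunits stood at 253 and 245 CPM in somata control libraries and at 317 and 302 CPM in somata PTX libraries, and at 362 and 370 CPM in processes control against 477 and 468 CPM in processes PTX. Both PTX libraries thus lay above both control libraries in each compartment. The cyclases summed to 316 and 269 CPM in somata control, 289 and 238 CPM in somata PTX, 602 and 446 CPM in processes control and 731 and 494 CPM in processes PTX. For the cyclases control and PTX libraries overlapped in both compartments, while every process library lay above every somata library. Between libraries of the same replicate number, the cyclase sum was lower with PTX in both somata pairs and higher with PTX in both process pairs. Phosphodiesterases summed to 308 to 327 CPM in the 4 somata libraries and to 453 to 582 CPM in the 4 process libraries, and the catalytic PKA subunits to 98.8 to 151 CPM over all 8. These sums were not tested.

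**Figure D1:**
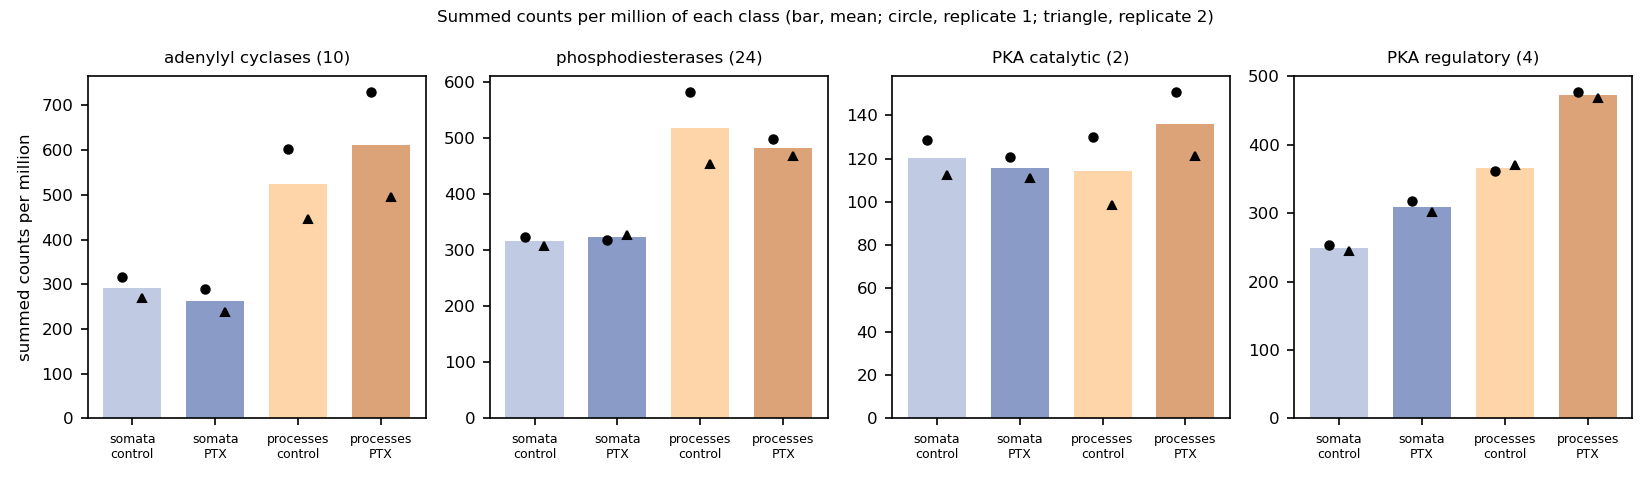
Summed CPM after TMM scaling (vertical axis) of the 4 gene classes in the 4 groups (horizontal axis). Bars are the mean of 2 libraries, circles replicate 1 and triangles replicate 2. The regulatory PKA subunits stand at a mean of 249 CPM in control and 310 CPM in PTX libraries of somata and at 366 and 472 CPM in processes, with no overlap, and in the other classes the control and PTX libraries overlap in at least 1 compartment.

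The 4 groups were compared in a single edgeR model with a quasi-likelihood test, and p-values were adjusted over all 14309 tested genes. After PTX, 3 of the 31 genes rose in somata (Pde10a, Pde4b and Prkar2a) and 1 fell (Pde1a), where 2.09% of all tested genes rose and 1.5% fell. In processes 4 rose (Prkar2a, Pde7b, Pde10a and Pde4b) and 2 fell (Pde1a and Pde2a), where 1.64% of all tested genes rose and 2.1% fell. The median log2 fold change of the 31 genes was 0.06 in somata and 0.17 in processes, beside -0.01 for all tested genes in both. In somata the PTX libraries lay wholly above the control libraries for 11 of the 31 genes and wholly below for 6. Over all 14309 tested genes this held for 3434 and 3574. In processes it held for 10 and 5 of the 31, beside 2872 and 3190 of all tested genes. With the replicate number as a block, 6 rose and 4 fell in somata (7.21% and 6.79% of all tested genes) and 8 rose and 2 fell in processes (5.1% and 6.09%). The somata count fell from 4 to 2 without somata control replicate 1 and to 1 without somata control replicate 2 or somata PTX replicate 2, and it rose to 6 without either processes PTX library. The processes count fell from 6 to 2 without processes control replicate 1 or processes PTX replicate 2 and to 3 without processes PTX replicate 1.

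Between the compartments of control cultures, 9 of the 31 genes were higher in processes and 7 lower, where 25.8% of all tested genes were higher and 21.9% lower. With a log2 fold change past 1 as well, 5 were higher (Adcy1, Adcy5, Pde2a, Pde7b and Prkar1a) and none lower, beside 11.6% and 7.58% of all tested genes. The median log2 fold change was 0.10, against -0.05 for all tested genes. Process libraries lay wholly above somata libraries for 14 of the 31 genes and wholly below for 9, beside 5134 and 5582 of all 14309 tested genes. In PTX cultures 11 were higher and 7 lower (25.7% and 24% of all tested genes), and 8 and 2 of these were past a log2 of 1 (11.4% and 9.67%). With the block 12 were higher and 9 lower in control cultures (29.8% and 28% of all tested genes) and 13 and 9 in PTX cultures (30% and 29.6%). These directions are relative to the other transcripts of a library. Scaled by library size alone, the median of all tested genes was -1.86 in control and -1.87 in PTX cultures, the values of all 9 genes that were higher in control processes turned negative, the count was 0 higher and 29 lower, and each of the 9 still lay above that median. Upper quartile scaling gave 7 higher and 8 lower in control and 9 and 9 in PTX cultures. The 2 compartment comparisons share their libraries with the PTX comparisons and are not independent of them.

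**Figure D2:**
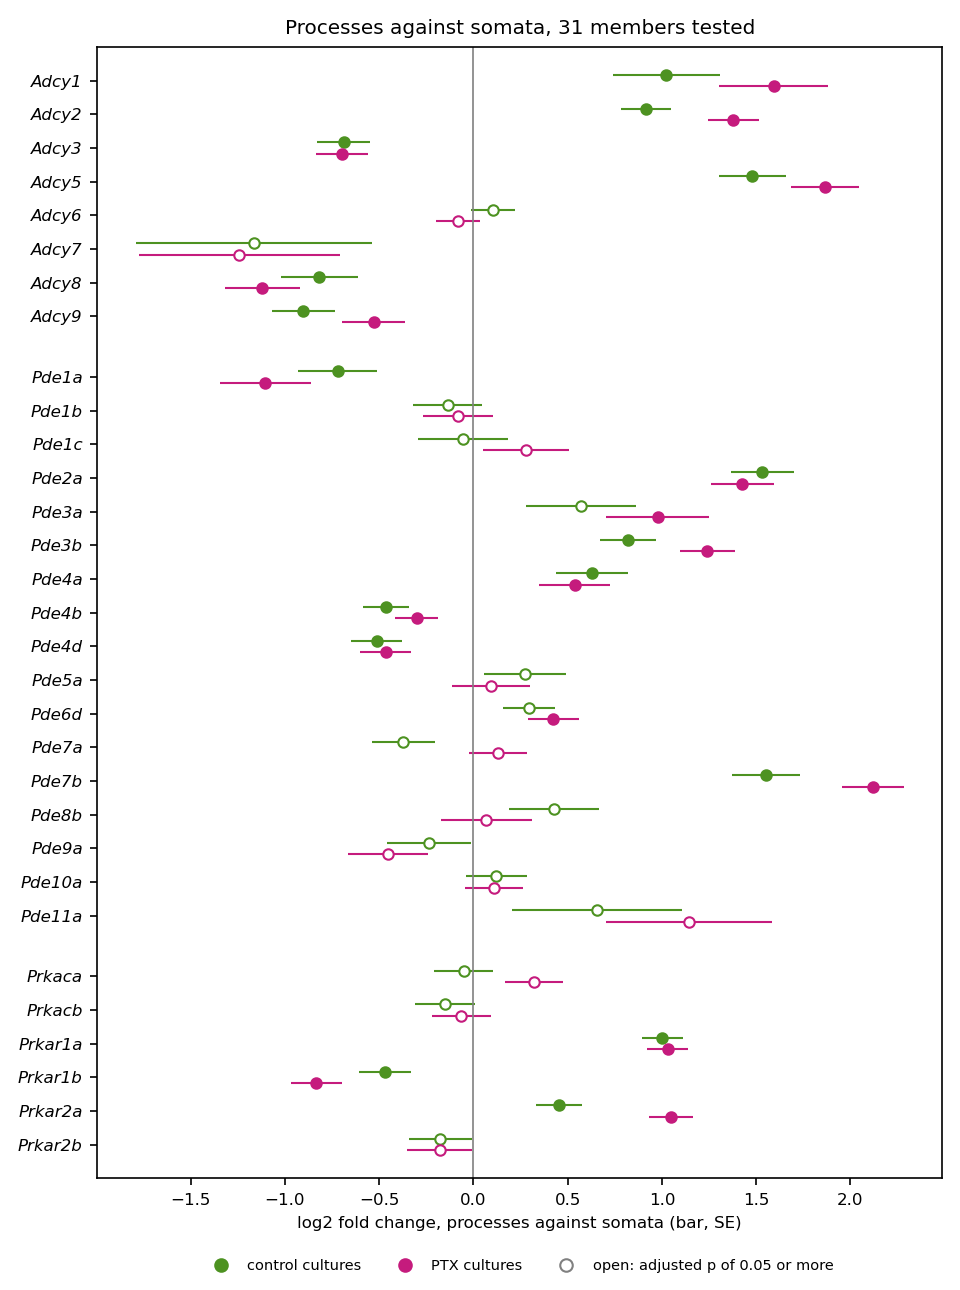
Log2 fold change of processes against somata (horizontal axis, bar 1 SE) for the 31 genes tested, in control and PTX cultures. Filled symbols passed an adjusted p under 0.05 in edgeR's quasi-likelihood test with TMM scaling. Pde7b, Pde2a and Adcy5 lie farthest to the right in control cultures, at 1.55, 1.53 and 1.48, and turn to -0.26, -0.29 and -0.34 when libraries are scaled by size alone, where the median of all genes is -1.86.

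Among the cyclases, the calcium/calmodulin-stimulated Adcy1, the calcium-inhibited Adcy5 and the Gβγ-responsive Adcy2 were higher in processes than in somata, whereas the calcium-sensitive Adcy3 and Adcy8 and the widely expressed Adcy9 were lower, in control cultures under TMM scaling (by library size alone all 6 were lower). Adcy5 had 55.2 and 50.2 CPM in somata control libraries and 170 and 124 CPM in processes control libraries. Its groups did not overlap, and the difference was 2.79-fold (log2 1.48 ± 0.18 SE, adjusted p = 7.10e-05). In PTX cultures Adcy5 had 51.1 and 45 CPM in somata and 203 and 148 CPM in processes.

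Adcy1, a cyclase known for its part in calcium-driven plasticity, had 130 and 93.9 CPM in somata control and 278 and 177 CPM in processes control libraries. It was 2.03-fold higher in processes (log2 1.02 ± 0.28, adjusted p = 0.0129). In PTX cultures it had 112 and 77.7 CPM in somata and 360 and 213 CPM in processes (log2 1.59 ± 0.29, adjusted p = 0.00104). The process libraries of Adcy1 lay above the somata libraries in both conditions, but the replicates of a group lay far apart. Without somata control replicate 2 the control difference was 0.80 (adjusted p = 0.0882) and without processes control replicate 1 it was 0.66 (adjusted p = 0.133).

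Adcy2 had 50.2 and 48.1 CPM in somata control, 36.7 and 36 in somata PTX, 93.3 and 92.2 in processes control and 109 and 80.8 in processes PTX libraries. It was 1.89-fold higher in control processes (log2 0.92 ± 0.13, adjusted p = 0.000274). Adcy8 had 21.8 and 16.8 CPM in somata control, 29.1 and 23.5 in somata PTX, 12.8 and 9.04 in processes control and 13.2 and 11.1 in processes PTX libraries. It was lower in control processes by a log2 fold change of -0.82 ± 0.20 (adjusted p = 0.00745), a call that was lost without somata control replicate 1 (-0.62, adjusted p = 0.0574) or processes control replicate 2 (-0.59, adjusted p = 0.0765). Adcy3, at 12.1 to 23 CPM over the 8 libraries, and Adcy9, at 6.11 to 13.3 CPM, were lower in control processes by -0.69 ± 0.14 (adjusted p = 0.00234) and -0.90 ± 0.17 (adjusted p = 0.00131). Adcy6 had 19.9 to 25.1 CPM in all 8 libraries with a compartment difference of 0.10 ± 0.12 (adjusted p = 0.484), and Adcy7, with 5 to 75 reads, had -1.16 ± 0.63 (adjusted p = 0.148).

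None of the 8 tested cyclases passed the edgeR quasi-likelihood test for PTX in either compartment. At an unadjusted p under 0.05 there were 2 in somata (Adcy2 and Adcy8) and 0 in processes, beside 15.6% and 16.6% of all tested genes, and the likelihood ratio test and DESeq2 called 0. The PTX difference in somata was -0.43 ± 0.13 for Adcy2 (95% interval -0.73 to -0.14, adjusted p = 0.116) and 0.45 ± 0.18 for Adcy8 (0.05 to 0.84, adjusted p = 0.244). In somata the libraries of the 2 conditions did not overlap for either gene. The same held for 3434 (higher) and 3574 (lower) of all 14309 tested genes. With the replicate number as a block both passed, Adcy2 lower (adjusted p = 0.00387, range over the alternatives 0.00387 to 0.223) and Adcy8 higher (adjusted p = 0.00388, range 0.00388 to 0.402). Of the 11 alternatives, the block among them, 3 called Adcy2 and 1 called Adcy8.

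In processes the block added a rise of Adcy1 (0.32 ± 0.09, adjusted p = 0.0284, range over the alternatives 0.0284 to 0.885), against 0.33 ± 0.28 without the block (adjusted p = 0.63). Leaving out processes PTX replicate 1, the library with 360 CPM, turned that value to -0.10 (adjusted p = 0.923). In somata the Adcy1 value was -0.24 ± 0.28 (adjusted p = 0.789). The 5 remaining cyclases had PTX differences of -0.30 to 0.70 in somata and -0.22 to 0.62 in processes, with adjusted p from 0.352 to 0.943 and from 0.417 to 0.926.

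Phosphodiesterases, 17 of the 31 genes, held 3 of the 4 PTX calls in somata and 5 of the 6 in processes. Pde1a, a calcium/calmodulin-stimulated enzyme that cleaves both cyclic nucleotides, had 27.1 and 20.1 CPM in somata control and 13.9 and 9.82 CPM in somata PTX libraries. In processes it had 16.2 and 12.4 CPM in control and 5.63 and 5.43 CPM in PTX libraries. Both PTX libraries lay below both control libraries in each compartment. Pde1a fell to 0.504 of control in somata (log2 -0.99 ± 0.20, adjusted p = 0.02) and to 0.386 of control in processes (-1.37 ± 0.25, adjusted p = 0.0168). Somata lost the call without somata control replicate 1 (-0.76, adjusted p = 0.153) or somata PTX replicate 2 (-0.77, adjusted p = 0.127). Processes lost it without processes control replicate 1 (-1.17, adjusted p = 0.145), processes PTX replicate 1 (-1.40, adjusted p = 0.0918) or processes PTX replicate 2 (-1.35, adjusted p = 0.105). The related Pde1b and Pde1c, at 11.7 to 18 CPM and 9.31 to 17 CPM, had PTX differences of -0.18 ± 0.17 and 0.09 ± 0.22 in somata (adjusted p = 0.71 and 0.914) and of -0.13 ± 0.20 and 0.43 ± 0.25 in processes (adjusted p = 0.812 and 0.448).

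Pde2a, which is stimulated by cyclic GMP and cleaves both nucleotides, had 103 and 100.4 CPM in somata control and 65.5 and 68.5 CPM in somata PTX libraries. In processes it had 340 and 246 CPM in control and 204 and 156 CPM in PTX libraries. All PTX libraries lay below the control libraries of their compartment. The fall passed in processes (log2 -0.70 ± 0.17, adjusted p = 0.0433), and the somata value was -0.60 ± 0.17 (adjusted p = 0.0804), which passed with the block (adjusted p = 0.000487, range over the alternatives 0.000487 to 0.082). The likelihood ratio test (adjusted p = 0.0192) and DESeq2 (adjusted p = 0.0172) also called the somata fall. The process call was held without processes control replicate 2 alone. It was lost without either somata control library (adjusted p = 0.0623 and 0.0627), either somata PTX library (0.0517 and 0.052), processes control replicate 1 (-0.45, adjusted p = 0.282), processes PTX replicate 1 (-0.91, adjusted p = 0.0593) or processes PTX replicate 2 (-0.52, adjusted p = 0.221).

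Pde10a, an enzyme for both nucleotides that is known from striatal neurons, had 33.7 and 28.7 CPM in somata control and 56.6 and 61 CPM in somata PTX libraries. In processes it had 40 and 27.7 CPM in control and 64.2 and 62.7 CPM in PTX libraries. It rose by nearly the same factor in both compartments, 1.89-fold in somata (log2 0.91 ± 0.15, adjusted p = 0.00895) and 1.87-fold in processes (0.90 ± 0.16, adjusted p = 0.0147). The compartments did not differ detectably in this response (difference -0.01, 95% interval -0.50 to 0.48). Without somata control replicate 2 the somata value was 0.79 (adjusted p = 0.115) and without somata PTX replicate 2 it was 0.85 (adjusted p = 0.0501). The process value was 0.89 (adjusted p = 0.0777) without processes PTX replicate 1 and 0.92 (adjusted p = 0.0701) without replicate 2.

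**Figure D3:**
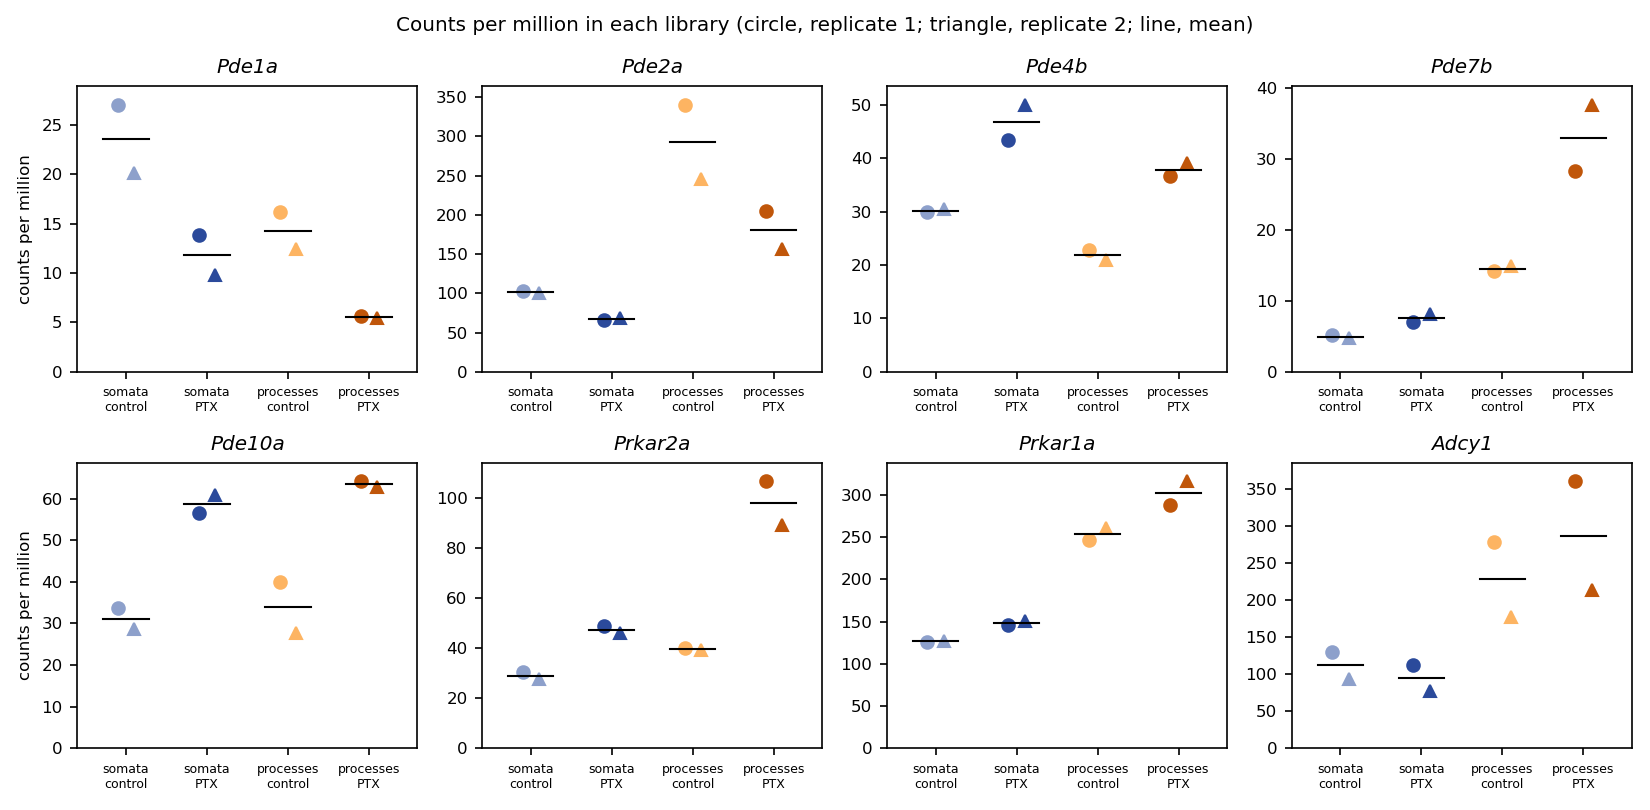
CPM after TMM scaling (vertical axis, from 0) in each of the 8 libraries for the 6 genes called after PTX and for Prkar1a and Adcy1. Circles are replicate 1, triangles replicate 2 and lines the mean. Prkar2a in processes stands at 40.3 and 39.2 CPM in control and at 107 and 89 CPM in PTX libraries, and Pde1a lies lower in PTX than in control libraries of both compartments.

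CREB, which PKA activates, binds the cyclic AMP response element, and promoter sequence of the genes was searched for it as a description. RefSeq promoter windows of the rat assembly GRCr8 (250 bases before to 50 bases after each start) were matched by symbol for 27 of the 40 genes, with 40 windows. No window was given for Adcy3, Adcy6, Adcy8, Pde1b, Pde3b, Pde4c, Pde6c, Pde6d, Pde6g, Pde7a, Pde7b, Pde9a and Prkar2a. The full element TGACGTCA was in 0 of the 40 windows and in 1.83% of all 33469 windows, searched on both strands. The short form TGACG, which the full element contains, was on either strand in 10 of the 40 windows (25%) from 8 genes and in 21.2% of all windows. Of the genes called after PTX, only Pde10a had a short form in a given window, with 2 in the window of 1 of its 2 starts. The sequences around them are shown beside those of Prkaca, which had 2 in a single window and no PTX call, as had Pde4d. Capitals mark the short form or its reverse complement, and each line reads 5′ to 3′ on the strand of the gene, which is the minus strand for both.
Pde10a, chr1:54765831-54765860, 179 bases before the start: aaggtccggctgcTGACGtccaagcctctg
Pde10a, chr1:54765756-54765785, 104 bases before the start: acgaggctgcagaCGTCAtcgcctcctgtt
Prkaca, chr19:41083366-41083395, 193 bases before the start: agtctgcaactcgCGTCActcatccaggag
Prkaca, chr19:41083252-41083281, 79 bases before the start: tggactgcgggggCGTCAcggacagaggac

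Among the cyclic AMP-specific enzymes, Pde4b, which is known as a target of rolipram, had 30 and 30.4 CPM in somata control and 43.5 and 50 CPM in somata PTX libraries. In processes it had 22.7 and 21 CPM in control and 36.6 and 39.1 CPM in PTX libraries. It rose 1.55-fold in somata (log2 0.63 ± 0.11, adjusted p = 0.0114) and 1.73-fold in processes (0.79 ± 0.12, adjusted p = 0.00763), with no overlap in either compartment. The somata call was lost without somata control replicate 1 (adjusted p = 0.0913), somata control replicate 2 (0.118) or somata PTX replicate 2 (0.113), with values of 0.52 to 0.63, and the process call without processes control replicate 1 (0.85, adjusted p = 0.0516) or processes PTX replicate 2 (0.74, adjusted p = 0.0547). Its relatives Pde4a and Pde4d, at 10.9 to 21.3 CPM and 12.8 to 20 CPM, had PTX differences between -0.08 and 0.09 in both compartments, with adjusted p of 0.827 to 0.993.

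Pde7b, a high-affinity cyclic AMP phosphodiesterase, combined the largest compartment difference of the 31 genes with a rise after PTX. It had 5.14 and 4.78 CPM in somata control, 7.05 and 8.21 in somata PTX, 14.2 and 14.9 in processes control and 28.4 and 37.7 in processes PTX libraries, from 121 to 375 reads. The 4 groups did not overlap with each other. It rose 2.28-fold in processes (log2 1.19 ± 0.17, adjusted p = 0.00471), a call that was lost without processes control replicate 1 (1.15, adjusted p = 0.0587). In somata the value was 0.62 ± 0.17 (adjusted p = 0.0823), which passed with the block (adjusted p = 0.00589, range over the alternatives 0.00589 to 0.123). The likelihood ratio test also called the somata rise (adjusted p = 0.031), and DESeq2 did not (adjusted p = 0.123). Processes exceeded somata 2.93-fold in control cultures (log2 1.55 ± 0.18, adjusted p = 5.24e-05) and 4.34-fold in PTX cultures (2.12 ± 0.16, adjusted p = 3.11e-06), both under TMM scaling, against -0.26 in control cultures by library size alone.

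Its relative Pde7a had 11.3 and 10.1 CPM in somata control, 13.5 and 11.2 in somata PTX, 9.03 and 7.52 in processes control and 13.3 and 13.8 in processes PTX libraries. In processes its libraries did not overlap, and the PTX difference was 0.71 ± 0.18 (adjusted p = 0.0527), which passed with the block (adjusted p = 0.00538, range over the alternatives 0.00538 to 0.0978). The likelihood ratio test also called it (adjusted p = 0.0134), and DESeq2 did not (adjusted p = 0.0721). The cyclic GMP-inhibited enzymes Pde3a and Pde3b were further additions of the block in processes. Pde3a had 9.37 and 10.8 CPM in processes control and 11 and 20.5 CPM in processes PTX libraries (0.65 ± 0.29, adjusted p = 0.297, with the block 0.0466, range 0.0192 to 0.33), and in somata 7.18 and 6.38 CPM in control and 6.36 and 9.82 CPM in PTX libraries. Pde3b had 21.1 and 24.7 CPM in processes control and 28.9 and 32.6 CPM in processes PTX libraries (0.43 ± 0.15, adjusted p = 0.164, with the block 0.0235, range 0.0235 to 0.27), and in somata 12.6 and 13.3 CPM in control and 11.7 and 14.4 CPM in PTX libraries. Without processes PTX replicate 2, its highest library, the Pde3a difference was 0.13.

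The remaining tested phosphodiesterases had no PTX call with or without the block. They are the cyclic GMP-specific Pde5a and Pde9a, the cyclic AMP-specific Pde8b, the dual Pde11a and Pde6d, a photoreceptor subunit that also serves as a carrier of prenylated proteins. Their levels ranged from 1.8 CPM (Pde11a) to 17.8 CPM (Pde6d), their PTX differences from -0.20 to 0.35, and none was called between control compartments without the block. Besides Pde2a and Pde7b, control processes were higher in Pde3b (0.82 ± 0.15, adjusted p = 0.00111) and Pde4a (0.63 ± 0.19, adjusted p = 0.0192) and lower in Pde1a (-0.72 ± 0.21, adjusted p = 0.016), Pde4b (-0.46 ± 0.12, adjusted p = 0.00936) and Pde4d (-0.51 ± 0.14, adjusted p = 0.0105) under TMM scaling, while library size alone put all of them lower. Pde2a was 2.89-fold higher (1.53 ± 0.17, adjusted p = 3.58e-05). The calls of Pde2a, Pde3b and Pde7b held without any 1 library. Pde4a lost its call without somata control replicate 1 (adjusted p = 0.0877), somata control replicate 2 (0.0525) or processes control replicate 1 (0.26, adjusted p = 0.252), Pde1a without somata control replicate 1 (0.127) or processes control replicate 2 (0.127), and Pde4b and Pde4d without processes control replicate 2 (0.057 and 0.0672).

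**Figure D4:**
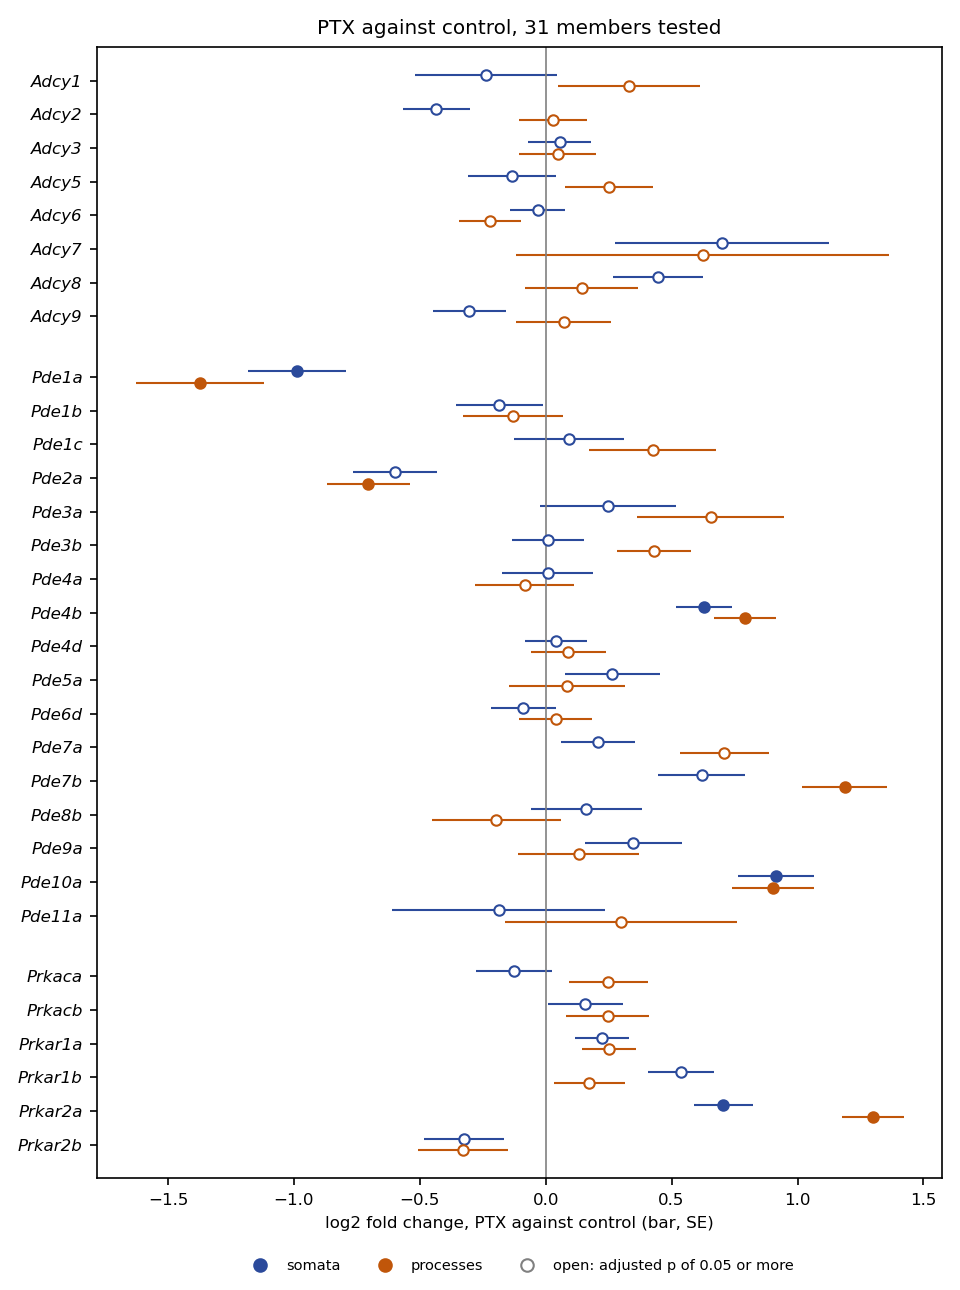
Log2 fold change of PTX against control (horizontal axis, bar 1 SE) in somata and processes for the 31 genes tested. Filled symbols passed an adjusted p under 0.05 in edgeR's quasi-likelihood test. Pde1a, Pde4b, Pde10a and Prkar2a are filled in both compartments, Pde2a and Pde7b in processes, and no cyclase in either.

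In the edgeR model without the block, all calls within PKA fell on regulatory subunits under TMM scaling. The block added the catalytic Prkaca, higher in processes of PTX cultures (adjusted p = 0.00653). Prkar2a encodes the regulatory subunit RIIα, which binds anchoring proteins, and it had the lowest adjusted p for PTX of the 31 genes. It had 30.5 and 27.6 CPM in somata control and 48.7 and 46 CPM in somata PTX libraries. In processes it had 40.3 and 39.2 CPM in control and 107 and 89 CPM in PTX libraries, from 361, 334, 929 and 885 reads. Every PTX library lay above every control library of both compartments. Prkar2a rose 2.46-fold in processes (log2 1.30 ± 0.12, adjusted p = 0.000887), which held without any 1 library (values 1.16 to 1.42), and 1.63-fold in somata (0.71 ± 0.12, adjusted p = 0.00895). The somata call was lost without somata control replicate 2 (0.62, adjusted p = 0.119) or somata PTX replicate 1 (0.66, adjusted p = 0.0765).

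Processes exceeded somata in Prkar2a by 0.45 ± 0.12 in control cultures (adjusted p = 0.0113, lost without somata control replicate 2 at 0.38, adjusted p = 0.0835) and by 1.05 ± 0.12 in PTX cultures (adjusted p = 4.04e-05), against -1.35 and -0.79 by library size alone. Prkar1a, the RIα subunit, had 126 and 127 CPM in somata control, 146 and 150 in somata PTX, 247 and 261 in processes control and 288 and 316 in processes PTX libraries. The 4 groups did not overlap. It was 2.0-fold higher in control processes (log2 1.0 ± 0.11, adjusted p = 3.09e-05, against -0.80 by library size alone), and its PTX differences were 0.22 ± 0.11 in somata (adjusted p = 0.352) and 0.25 ± 0.11 in processes (adjusted p = 0.267).

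Prkar1b, the RIβ subunit found mainly in the nervous system, had 61.8 and 60.9 CPM in somata control and 94.7 and 83.2 CPM in somata PTX libraries, with 44.6 and 43.9 CPM in processes control and 57 and 43 CPM in processes PTX libraries. The somata PTX difference of 0.54 ± 0.13 was just short of the threshold (adjusted p = 0.0512) and passed with the block (adjusted p = 0.000261, range over the alternatives 0.000261 to 0.0573). It also passed by the likelihood ratio test (adjusted p = 0.00713) and DESeq2 (adjusted p = 0.0203). In processes the conditions overlapped (0.17 ± 0.14, adjusted p = 0.608). Prkar1b was lower in control processes (-0.47 ± 0.14, adjusted p = 0.0162), a call that was lost without somata control replicate 1 (adjusted p = 0.0639) or either processes control library (0.0604 and 0.0701).

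Prkar2b, the RIIβ subunit, had 34.6 and 29.1 CPM in somata control, 28.2 and 22.5 in somata PTX, 30.3 and 26 in processes control and 25.6 and 19.4 in processes PTX libraries. Its PTX libraries lay below the control libraries of each compartment, with differences of -0.32 ± 0.16 in somata (adjusted p = 0.374, with the block 0.0203, range 0.0203 to 0.638) and -0.33 ± 0.18 in processes (adjusted p = 0.403). The catalytic subunits Prkaca and Prkacb had 76.7 to 119 CPM and 22.1 to 32 CPM over the 8 libraries. Their PTX differences lay between -0.13 and 0.25 (adjusted p 0.484 to 0.796), and their compartment differences in control cultures were -0.05 ± 0.15 and -0.15 ± 0.16 (adjusted p = 0.801 and 0.456).

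Whether PTX acted differently in the compartments was tested by subtracting the PTX effect in somata from that in processes. Of the 31 genes 0 passed, as in the likelihood ratio test, DESeq2 and the fit with the block, and 0% of all 14309 genes passed, or 0.105% with the block. At an unadjusted p under 0.05 there were 3 of the 31 genes (4% of all tested genes). The difference was 0.59 ± 0.17 for Prkar2a (95% interval 0.22 to 0.97), 0.57 ± 0.24 for Pde7b (0.04 to 1.10) and 0.46 ± 0.19 for Adcy2 (0.05 to 0.88). The adjusted p of Prkar2a was 0.99 or more in edgeR's quasi-likelihood test, 0.76 in the likelihood ratio test and 0.116 with the block. For the 6 genes called after PTX a difference between compartments is thus not established. Pde7b and Pde2a, called in processes only by the quasi-likelihood test, had somata values of the same sign. Both passed in somata by the likelihood ratio test (adjusted p = 0.031 and 0.0192).

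The other genes of the pathway were followed in a list of 67, of which 65 were in the table and 55 were tested. After PTX 5 rose and 2 fell in somata (2.09% and 1.5% of all tested genes), and 2 rose and 1 fell in processes (1.64% and 2.1%). With the block 11 rose and 4 fell in somata (7.21% and 6.79%) and 5 rose and 6 fell in processes (5.1% and 6.09%). The CREB family member Crem, whose short products repress cyclic AMP-responsive genes, rose in both. It had 10.5 and 8.5 CPM in somata control, 23.7 and 25.6 in somata PTX, 22.6 and 33.1 in processes control and 79 and 103 in processes PTX libraries (1.38 ± 0.19, adjusted p = 0.00371, and 1.71 ± 0.19, adjusted p = 0.00223). In somata Adcyap1, which encodes the Gs-coupled ligand PACAP, rose by 1.26 ± 0.18 (adjusted p = 0.00425), the constitutively active Gs-coupled receptor Gpr3 by 1.48 ± 0.27 (adjusted p = 0.0128), the cyclic AMP-binding membrane protein Bves by 1.08 ± 0.26 (adjusted p = 0.0491, not called by DESeq2) and the anchoring protein Akap13 by 0.47 ± 0.11 (adjusted p = 0.0453). Their process values had the same sign, Adcyap1 0.82 ± 0.29 (adjusted p = 0.171), Gpr3 1.83 ± 0.53 (0.0945), Bves 1.17 ± 0.35 (0.108) and Akap13 0.28 ± 0.12 (0.259). The likelihood ratio test called Gpr3 and Bves in processes (adjusted p = 0.0353 and 0.0329).

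The synaptic anchoring protein Akap5 fell in somata (-0.83 ± 0.14, adjusted p = 0.00844), as did Gucy1a1, a subunit of the nitric oxide-sensitive guanylyl cyclase (-1.47 ± 0.19, adjusted p = 0.00234). Their process values were -0.45 ± 0.17 (adjusted p = 0.196) and -0.98 ± 0.25 (adjusted p = 0.0615, and 0.0117 by the likelihood ratio test). In processes Prkg2, a cyclic GMP-dependent kinase, rose (0.73 ± 0.16, adjusted p = 0.0298) and Crtc1, a coactivator of CREB, fell (-0.81 ± 0.20, adjusted p = 0.0473). Their somata values were 0.57 ± 0.15 (adjusted p = 0.0611, and 0.0145 by the likelihood ratio test) and -0.28 ± 0.19 (adjusted p = 0.562). None of the 2 Gs-type and 5 Gi-type G proteins and the 3 kinase inhibitors was called for PTX in either compartment by edgeR's quasi-likelihood test, the likelihood ratio test or DESeq2, with 2 at an unadjusted p under 0.05 and 1 called lower with the block, all in processes. The PTX effect differed between compartments for 0 of the 55 in edgeR's quasi-likelihood test, the likelihood ratio test and DESeq2, with 2 at an unadjusted p under 0.05. Between control compartments 19 of the 55 were higher in processes and 13 lower under TMM scaling, where 25.8% of all tested genes were higher and 21.9% lower. Among the higher were Gnal (1.20 ± 0.21, adjusted p = 0.000828), Gnas (0.71 ± 0.15, adjusted p = 0.0025), the kinase inhibitor Pkig (1.62 ± 0.12, adjusted p = 2.66e-06) and the anchoring protein Akap12 (2.61 ± 0.28, adjusted p = 3.05e-05). Among the lower were the Gs-coupled receptors Gpr6 (-3.41 ± 0.61, adjusted p = 0.000999) and Gpr3 (-2.08 ± 0.47, adjusted p = 0.00435), and Gucy1a1 (-1.02 ± 0.20, adjusted p = 0.002). Both receptors were near the floor in processes control libraries. Gpr6 had 0.112 and 0.117 CPM there, the worth of 1 read in each, and Gpr3 had 0.223 and 0.587 CPM. Of the 11 Gs-coupled receptors tested, 3 were lower in control processes and 1 was higher. The higher one was Adcyap1r1 (1.0 ± 0.18, adjusted p = 0.00111), with a mean of 294 CPM in somata control and 589 CPM in processes control.

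Markers of neurons and of neuron types moved with PTX as well. The 5 general neuronal markers summed to 1579 to 1786 CPM in somata control and 1380 to 1534 CPM in somata PTX libraries, and to 4959 to 5212 CPM and 3709 to 4353 CPM in processes. Of these 5, Rbfox3 fell in somata (-0.67 ± 0.14, adjusted p = 0.0221, not called by DESeq2). None passed in processes by edgeR's quasi-likelihood test or DESeq2. There, 4 had an unadjusted p under 0.05 (16.6% of all tested genes). The likelihood ratio test called 1 lower (525 of all 14309 tested genes) and the block 4 (6.09%). By the quasi-likelihood test without the block, 2.09% of all tested genes rose and 1.5% fell in somata, and 1.64% and 2.1% in processes. The 5 inhibitory neuron markers summed to 238 to 337 CPM in somata control and 413 to 542 CPM in somata PTX libraries, and to 134 to 173 CPM and 218 to 285 CPM in processes, with Gad2 called in both compartments (0.92 ± 0.20, adjusted p = 0.0328, and 0.92 ± 0.21, adjusted p = 0.0384). By the same quasi-likelihood test Gad1 rose in somata (0.82 ± 0.17, adjusted p = 0.0247) and had 0.56 ± 0.18 in processes (adjusted p = 0.14). In somata and processes Slc32a1 had -0.02 ± 0.18 and 0.16 ± 0.21 (adjusted p = 0.976 and 0.779). Sst had 0.31 ± 0.27 and 0.28 ± 0.35 (adjusted p = 0.686 and 0.755), and Pvalb was not tested. The 4 excitatory neuron markers summed to 416 to 432 CPM in somata control and 275 to 297 CPM in somata PTX libraries, and to 722 to 967 CPM and 510 to 512 CPM in processes, and 2 of them (Neurod6 and Camk2a) fell in each compartment. Of the other two, Slc17a7 rose in processes (0.73 ± 0.14, adjusted p = 0.0172) and had -0.33 ± 0.13 in somata (adjusted p = 0.249), and Slc17a6 had 1.10 ± 0.33 in processes (adjusted p = 0.104) and 0.50 ± 0.22 in somata (adjusted p = 0.307). The astrocyte markers summed to 3169.9 to 4209 CPM in somata PTX and 11416 to 12684 CPM in processes PTX libraries, and 1 of the 8, Gja1, fell in somata (-0.61 ± 0.12, adjusted p = 0.0215). The part of such shifts, and of the astrocyte difference between compartments, in the values of the 31 genes was not tested.

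The replicates of these genes differed in a shared direction. Of the 31 genes, 17 (54.8%) were higher in replicate 1 than in replicate 2 in all 4 conditions, where 16.7% of all tested genes were, and 3 (Pde1c, Pde3b and Prkar1a) were higher in replicate 2 in all 4 (9.68%, beside 14.9%). The ratio of replicate 1 to replicate 2 was 1.39, 1.44, 1.57 and 1.69 for Adcy1 and 0.698, 0.746, 0.796 and 0.725 for Pde1c. For Pde11a, with 22 to 89 reads, it was 2.03, 1.62, 2.31 and 1.39. The cyclases Adcy1, Adcy2, Adcy3, Adcy5, Adcy7 and Adcy8 and both catalytic PKA subunits were among the 17, as were Prkar2a, Prkar2b, Prkar1b and Pde1a.

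**Figure D5:**
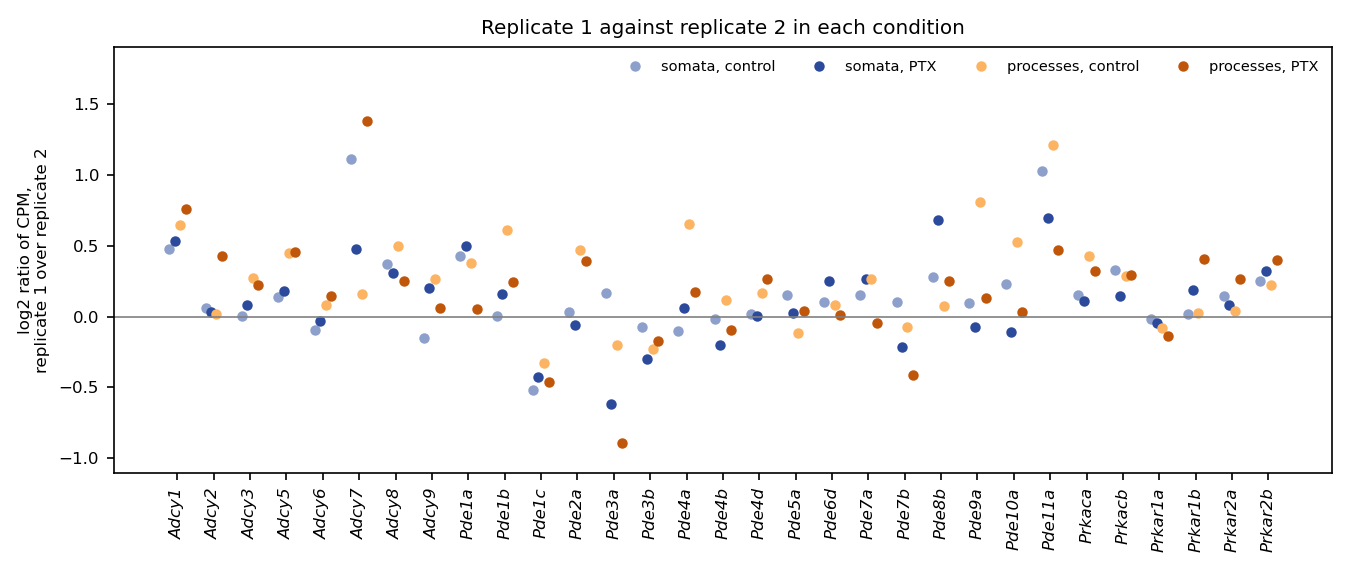
Log2 ratio of CPM in replicate 1 over replicate 2 (vertical axis) for each of the 31 genes tested (horizontal axis) in the 4 conditions. Points above 0 are higher in replicate 1. For 17 genes all 4 points lie above 0, with Adcy1 between ratios of 1.39 and 1.69, and for Pde1c, Pde3b and Prkar1a all 4 lie below.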

How the data were processed

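Gene counts of 8 libraries were analysed. The genes and lists were chosen with earlier results of these data known. Per the study's methods, the authors used Trimmomatic, Subread and featureCounts with an Ensembl annotation and then added up counts of equal symbol. The deposited counts are whole numbers and were not normalized. The submitters' processing notes name STAR, featureCounts, edgeR and Rnor_6.0 instead. The strand setting of the counting is not given in the sources used here, so reads of overlapping, antisense or near-identical genes are of uncertain origin, and counts that share a symbol cannot be separated. The authors' own comparison tables (log2 fold changes, log2 CPM, likelihood ratios, p-values and FDR) were not used.

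The 14309 genes that exceeded 20 reads in 2 or more libraries were scaled by TMM and fitted in edgeR 4.0.16 (R 4.3.3) with 1 coefficient per condition over all 8 libraries, by glmQLFit and glmQLFTest, and p-values were adjusted by Benjamini-Hochberg within each contrast. The threshold was 0.05. A standard error is the size of the log2 fold change over the root of its F statistic. CPM refer to TMM-scaled library sizes. DESeq2 1.42.0 and the likelihood ratio test served as alternatives, with other scalings, filters and thresholds, only the 4 libraries compared, a replicate block and leaving out each library, where the lone library of a condition was assumed to vary like the others. The procedure was tested on simulated data.

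Libraries of a group differed beyond counting noise (chi-square per degree of freedom 9.11 to 21.1), and each was treated as a replicate. Such a spread may be technical and does not show that the libraries came from separate cultures. The replicate numbers, which come from the labels, pair the libraries: differences between replicates 2 and 1 correlated across genes between all 6 pairs of conditions (r = 0.27 to 0.54). The block lowered the coefficient of variation from 11.5% to 6.77%. Values per library are given for genes called after PTX with or without the block, or between control compartments with a log2 fold change past 1, and the rest as ranges. Promoter windows are RefSeq sequence of GRCr8, a later assembly than the one in the processing notes. Protein sequences, genome positions of the genes and transcript lengths were not used here, and levels were not compared between genes.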

Additional observations from a re-analysis of the deposited data

How the results depend on the processing

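The number of the 31 genes called for PTX in somata, 4, was 7 with the likelihood ratio test and 7 with only the 4 libraries compared. It was 10 with the replicate block, 7 at an adjusted p under 0.1 and 2 at 0.01. With no filter it was 9 of all 40 genes, among them Pde4c, which is outside the 31. For PTX in processes, 6 became 10 with the replicate block and 3 at 0.01. For control compartments 16 became 29 by library size only and 10 at 0.01. Leaving out 1 library gave 1 to 6 for PTX in somata, 2 to 6 for PTX in processes, 11 to 16 and 12 to 20 for control and PTX compartments and 0 for the interaction. All other counts stayed within 1.5 times. By library size only, differences of processes against somata turned negative in control cultures for Adcy1 (-0.80), Adcy2 (-0.89), Adcy5 (-0.34), Pde2a (-0.29), Pde3b (-0.98), Pde4a (-1.20), Pde7b (-0.26), Prkar1a (-0.80) and Prkar2a (-1.35), and in PTX cultures for Adcy1 (-0.25), Adcy2 (-0.46), Pde2a (-0.41), Pde3a (-0.83), Pde3b (-0.58), Pde4a (-1.29), Pde6d (-1.40), Prkar1a (-0.79) and Prkar2a (-0.79), as that scaling moves the median of all genes to -1.86 and -1.87. Leaving out 1 library gave Adcy1 -0.10 to 0.69 for PTX in processes, with the negative value without processes PTX replicate 1, and the cause was not tested. Besides the calls it added, which stand beside each gene for PTX, the block also added Adcy7, Pde3a, Pde7a, Pde8b and Pde11a between control compartments, and Adcy7, Pde9a, Pde11a and Prkaca between PTX compartments, and it changed no other call. Without the filter Pde4c passed for PTX in somata (adjusted p = 0.0339) and Adcy10 for PTX in processes (adjusted p = 0.0409) and, lower in processes, between control compartments (-3.17, adjusted p = 0.0145). A median tested gene had 96 to 110 reads in a process library and 268 to 319 in somata, so the same difference is less precise in processes.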
